A study of Homo sapiens with 6 samples.

Results

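The AP-1 and immediate early genes described here are 10 transcripts: the FOS family (FOS, FOSB, FOSL1 and FOSL2), the JUN family (JUN, JUNB and JUND), the zinc finger factor EGR1, the survival gene IER3 and the JUN partner BATF3. They were taken by gene symbol, as 10 of the 18404 genes that the arrays measured by name, and each had 1 probe set annotated to that gene alone. All 6 RNA samples came from PrEC, an immortalized line of normal human prostate epithelial cells, grown in a commercial prostate epithelial medium and harvested 48 hours after plating under basal conditions. In 3 samples the cells carried shNT, the control hairpin, and in 3 they carried shPKCi, a short hairpin against PKCλ/ι, the atypical protein kinase C encoded by PRKCI. No stimulus was added to either line, whether each line is 1 clone or a pool was not given in the sources used here, and the series calls the samples of a line biological replicates.

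AP-1 is a dimer of leucine zipper proteins. JUN proteins pair with each other or with FOS proteins, and FOS proteins need a JUN partner to bind DNA. Transcripts of FOS, FOSB, JUN, JUNB, EGR1 and IER3 are classed as immediate early because a growth factor or stress signal raises them within minutes without new protein synthesis, mostly through mitogen-activated kinases, the serum response factor and its ternary complex partners. FOSL1 and FOSL2, whose proteins are FRA1 and FRA2, last longer after a stimulus, and FRA1 lacks the strong transactivation region of FOS. In epithelial cells AP-1 is known for driving collagenase, cytokine and cornified envelope genes.

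Promoters are shown for EGR1, FOS and FOSL2, which fell, and for JUN, which came near the threshold. Of the 10 members, 7 had an entry in the RefSeq promoter table (GRCh38.p14). FOSL1, IER3 and BATF3 did not. The sequences run 5′ to 3′ on the gene's strand and end 1 base before the annotated start. FOS lies at chr14:75278728-75278827, plus strand, FOSL2 at chr2:28392758-28392857, plus strand, JUN at chr1:58784048-58784147, minus strand and EGR1 at chr5:138465329-138465478, plus strand. Capitals mark the cyclic AMP response element core TGACGT, read on either strand, in FOS, FOSL2 and EGR1, the AP-1-like TGACATCA in JUN, and in EGR1 also the CArG boxes, the sites that serum response factor binds.
FOS: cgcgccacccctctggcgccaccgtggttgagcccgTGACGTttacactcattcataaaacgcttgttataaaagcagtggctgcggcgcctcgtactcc
FOSL2: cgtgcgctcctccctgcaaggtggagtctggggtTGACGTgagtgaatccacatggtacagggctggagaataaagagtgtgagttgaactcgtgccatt
JUN: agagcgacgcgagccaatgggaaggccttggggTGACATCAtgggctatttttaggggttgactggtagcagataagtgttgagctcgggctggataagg
EGR1: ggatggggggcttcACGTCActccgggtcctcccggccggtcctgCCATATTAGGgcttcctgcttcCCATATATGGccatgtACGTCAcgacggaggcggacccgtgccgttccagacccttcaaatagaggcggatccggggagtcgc
The core TGACGT was found in the 250 bases before the start in 5 of the 7 members (FOS, FOSB, FOSL2, JUND and EGR1), against 7.1% of 35116 annotated starts. It began 64 bases upstream in FOS, 60 in FOSB and 66 in FOSL2. FOSB and JUND, which hold it, did not pass the test below, and whether a motif bears on a change was not tested. The full element TGACGTCA, which contains that core, was found in JUND alone of the 7 (1.65% of all starts). JUN held TGACATCA at 67 to 60 bases upstream (2.37% of all starts). EGR1 held 2 CArG boxes, from 105 and 83 bases upstream, a motif present at 1.16% of all starts, and 1 match to the EGR1 consensus GCGNGGGCG (8.41% of all starts). The AP-1 site TGACTCA was in none of the 7 windows. Bases further upstream were not read, so a motif absent from a window, such as the CArG box in FOS, may lie beyond it. All motifs were read on both strands, and a match is a run of letters and was not tested as a binding site.

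Of the 10 members, IER3 and FOSL1 rose in shPKCi, EGR1, FOS and FOSL2 fell, and 5 did not pass the test (limma, adjusted p under 0.05). Across all 19158 probe sets with 1 gene, 17.6% passed, 9.03% as higher and 8.53% as lower. Refitted alone, the probe sets above the median signal gave 1998 higher and 1590 lower calls, so brighter probe sets passed more often. The groups did not overlap in 6 members, against 35.3% of all probe sets. The members and the lists below were chosen with earlier results of these data known, so these shares are not independent evidence of change. The median log2 fold change of the members was -0.17 and that of all probe sets -0.02. PRKCI, the transcript that the hairpin targets, had intensities of 1635, 1428 and 1843 in shNT and of 800.3, 810.2 and 753.8 in shPKCi. In RNA from whole cultures, fewer cells expressing a gene and less of its RNA per cell cannot be told apart. The array of shNT replicate 2 stood apart from the others in its correlations (0.975 to 0.985, against 0.984 to 0.994 among the remaining 5), and the called members are therefore also given without it.

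**Figure D1:**
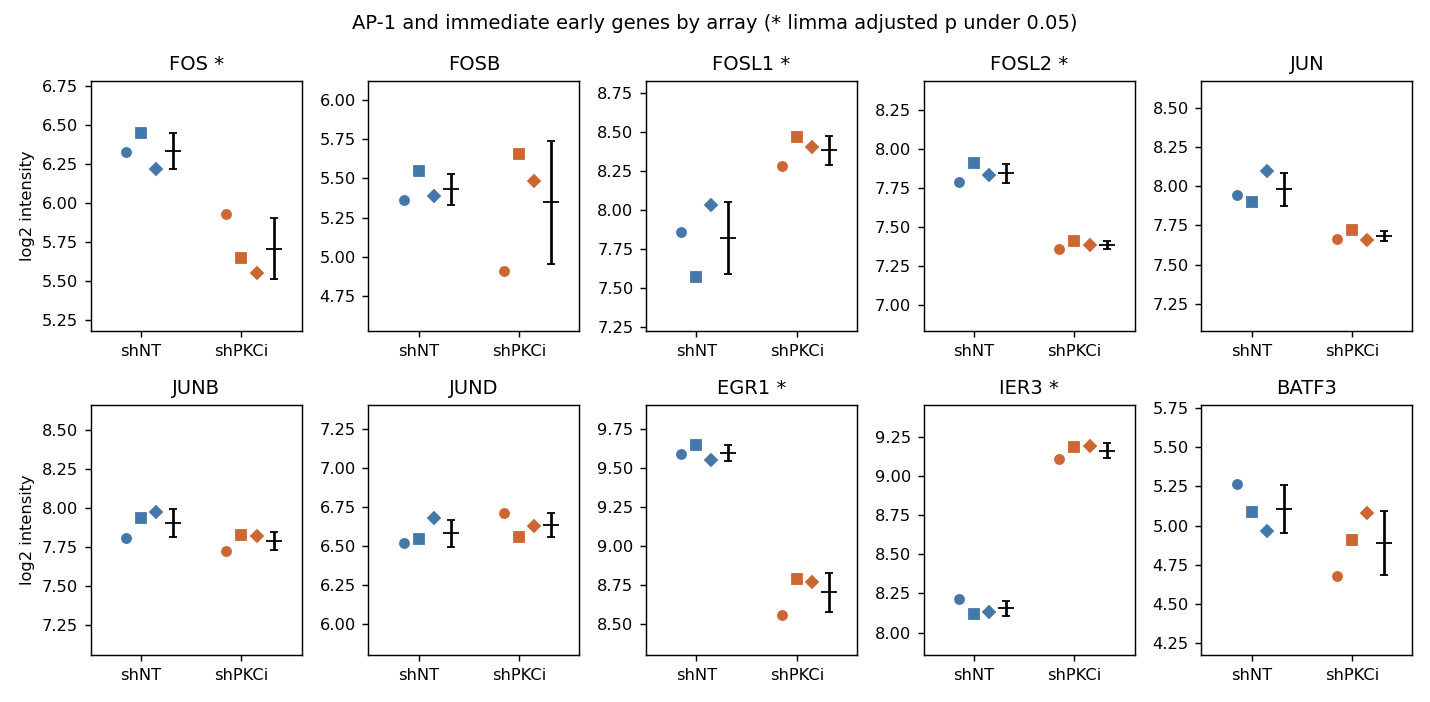
Log2 intensity of the 10 members on each array, shNT in blue and shPKCi in orange, with circles, squares and diamonds for replicates 1, 2 and 3. The bar beside each group is its mean and SD (n = 3), every panel spans the same log2 range, and the 5 starred genes are those in which the groups lie apart and the test was passed.

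EGR1, a zinc finger transcription factor induced by growth signals, showed the largest fall among the members. In shNT its intensities, in the order of replicates 1, 2 and 3, were 768.6, 801.4 and 748.5, and in shPKCi they were 377.0, 441.2 and 435.2. Each shPKCi value lay far below the lowest shNT value, and shPKCi replicate 1 was the lowest. Mean log2 signal was 9.59 ± 0.05 (shNT) against 8.70 ± 0.13 (shPKCi; SD, n = 3). This made a log2 fold change of -0.89 (SE 0.10, 95% confidence interval -1.12 to -0.66, adjusted p = 0.000509), a 1.85-fold lower level. Without shNT replicate 2 the log2 fold change was -0.86 (adjusted p = 0.00104).

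FOS, the founding FOS family gene, was likewise lower. Its intensities were 80.3, 87.3 and 74.4 in shNT and 60.8, 50.2 and 46.9 in shPKCi. The groups did not overlap, though shPKCi replicate 1 came closer to the shNT arrays than the other shPKCi arrays did. The log2 means were 6.33 ± 0.11 and 5.71 ± 0.20 (SD, n = 3), a log2 fold change of -0.62 (SE 0.12, 95% confidence interval -0.90 to -0.35, adjusted p = 0.00808), or 1.54-fold lower. Without shNT replicate 2 it was -0.56 (adjusted p = 0.016). FOS lay near the middle of the signal range, at percentile 47.9 of mean signal among all probe sets. Its shPKCi values came near the median intensities of those arrays (44.9, 45.7 and 45.5), so its fold size is uncertain. With a pseudocount of 16 the log2 fold change was -0.50 (limma, adjusted p = 0.00651).

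FOSL2, which encodes FRA2, had the tightest shPKCi group of the FOS family. Its intensities were 221.1, 240.7 and 228.3 in shNT and 164.3, 170.2 and 167.5 in shPKCi, so that the shPKCi arrays lay together and below every shNT array. Mean log2 signal was 7.84 ± 0.06 against 7.39 ± 0.03 (SD, n = 3). Between the groups this made a log2 fold change of -0.46 (SE 0.09, 95% confidence interval -0.66 to -0.26, adjusted p = 0.00793), or 1.37-fold lower. It was -0.43 without shNT replicate 2 (adjusted p = 0.00881).

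FOSL1, which encodes FRA1, went the other way from FOS and FOSL2. Its intensities were 232.3, 190.4 and 261.4 in shNT and 310.8, 352.9 and 338.6 in shPKCi. All shPKCi arrays were above all shNT arrays, and shNT replicate 2 was the lowest of the 6. The log2 means were 7.82 ± 0.23 and 8.38 ± 0.09 (SD, n = 3), a log2 fold change of 0.56 (SE 0.13, 95% confidence interval 0.27 to 0.85, adjusted p = 0.0164), or 1.48-fold higher. Without shNT replicate 2 the log2 fold change was 0.44 (adjusted p = 0.018). The call was lost without shPKCi replicate 2 (adjusted p = 0.0724), without shPKCi replicate 3 (0.0572), and when all 32321 probe sets of the table were adjusted together (0.0544).

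FOSB, the remaining FOS family gene, did not pass. Its intensities were 41.2, 46.7 and 41.8 in shNT and 30.0, 50.4 and 44.7 in shPKCi. The lowest and the highest of the 6 values were both shPKCi arrays. The log2 fold change was -0.08 (SE 0.18, 95% confidence interval -0.49 to 0.32, adjusted p = 0.817), and the interval allows changes of either sign. Of the 4 FOS family genes, 1 rose, 2 fell and 1 did not pass.

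The change of FOSL1 relative to its relatives was read within each array, as a log2 difference between the probe sets of 2 genes, whose level has no meaning but whose shift between groups shows unequal change. FOSL1 minus FOS was 1.53, 1.13 and 1.81 in shNT and 2.35, 2.81 and 2.85 in shPKCi, a shift of 1.18. FOSL1 minus FOSL2 was 0.07, -0.34 and 0.20 in shNT and 0.92, 1.05 and 1.02 in shPKCi, a shift of 1.02. In both differences every shPKCi array lay above every shNT array. This follows from the separation of each gene given above, and it adds no further support. These pairs were chosen after the values were seen, and the shifts are given with no test.

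None of the 3 JUN family genes passed the test. JUN, the main partner of FOS proteins, had intensities of 246.4, 238.4 and 274.3 in shNT and of 203.1, 211.1 and 202.1 in shPKCi. The shPKCi arrays lay below the shNT arrays, without overlap. The log2 means were 7.98 ± 0.11 and 7.68 ± 0.03 (SD, n = 3), a log2 fold change of -0.30 (SE 0.10, 95% confidence interval -0.52 to -0.08, adjusted p = 0.0647). JUN passed without shNT replicate 2 (adjusted p = 0.0315), after cyclic loess between arrays (0.0273) and under 5 other alternatives. It did not pass without any other single array, where the adjusted p ran from 0.112 to 0.186.

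JUNB, which encodes a JUN protein that restrains proliferation in several tissues, had intensities of 223.7, 245.2 and 252.0 in shNT and of 211.5, 227.5 and 226.0 in shPKCi. The groups overlapped, and the log2 fold change was -0.12 (SE 0.10, 95% confidence interval -0.33 to 0.10, adjusted p = 0.492). JUND, the JUN gene that is expressed steadily in resting cells, had intensities of 91.9, 93.4 and 102.7 in shNT and of 104.8, 94.3 and 99.0 in shPKCi. Its log2 fold change was 0.05 (SE 0.10, 95% confidence interval -0.17 to 0.27, adjusted p = 0.797). These intervals leave room for changes of the size seen in JUN for JUNB but not for a fall of that size in JUND.

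IER3, also known as IEX-1, encodes a short-lived stress-induced protein that affects cell survival, and it had the largest rise among the members. Its intensities were 296.4, 277.8 and 280.6 in shNT and 552.5, 582.8 and 585.4 in shPKCi. Every shPKCi array lay far above every shNT array, and the arrays of each group lay close together. Mean log2 signal was 8.15 ± 0.05 against 9.16 ± 0.05 (SD, n = 3). That is a log2 fold change of 1.01 (SE 0.09, 95% confidence interval 0.81 to 1.21, adjusted p = 0.000139), or 2.01-fold, and 0.99 without shNT replicate 2 (adjusted p = 0.00029). IER3 and EGR1, both induced early by the same kinds of signal, thus moved in opposite directions. IER3 was the 1 member that also passed a limma treat test against a fold of 1.5 (adjusted p = 0.0401), a test that asks for a change larger than that fold.

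BATF3, a leucine zipper partner of JUN known for dendritic cell development, was among the dimmest members, at percentile 29.4 of mean signal. Its intensities were 38.5, 33.9 and 31.3 in shNT and 25.6, 30.1 and 33.8 in shPKCi. The groups overlapped, and the log2 fold change was -0.22 (SE 0.13, 95% confidence interval -0.51 to 0.08, adjusted p = 0.319). BATF3 and FOSB, at percentile 36.2, were the members whose signal is least separable from background, and no detection calls were used here.

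**Figure D2:**
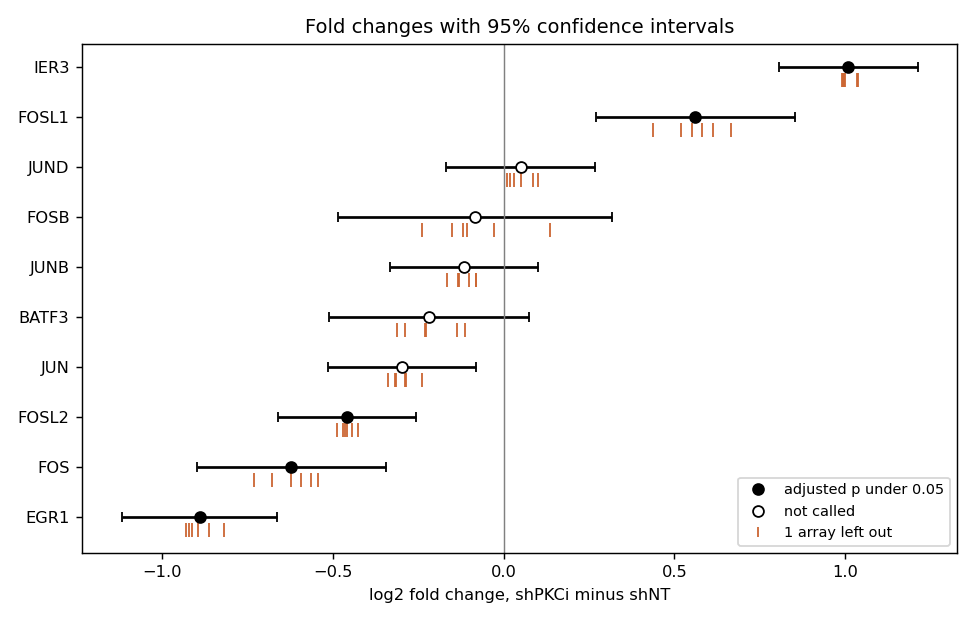
Log2 fold change of each member, shPKCi minus shNT, with its 95% confidence interval from limma, filled where the adjusted p was under 0.05, and orange ticks for the 6 fits that leave out 1 array. The ticks of every member but FOSB stay on 1 side of 0, and those of FOSB run from -0.24 to 0.14.

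Replicate arrays of a group did not vary together across the members. In 45 pairs of members, the correlation of deviations from the group means over the 6 arrays ran from -0.76 to 0.97, with 12 pairs above 0.5 and 10 below -0.5. FOSB and EGR1 had the highest value (0.97), and both were lowest in shPKCi replicate 1, at -0.44 and -0.14 from their group means. FOS was highest in that same array among the shPKCi arrays, 0.22 above the mean. The group means were subtracted before this correlation, which leaves few free values per gene, so large values of either sign can arise. It is given as a description.

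Among all genes, those whose log2 values ran most like IER3 over the 6 arrays were HMOX2, CSTF2, DAPP1 and SMU1, with Pearson r from 0.9986 to 0.9994. Those most like EGR1 were TMEM63B, NNMT, WFDC2 and TAGLN, with r from 0.9975 to 0.9990. A value above 0.95 was reached with IER3 by 841 genes and with EGR1 by 735. With 6 arrays in 2 groups, a shared difference between the groups can alone bring such values.

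Other leucine zipper genes of the AP-1 circle fell or did not pass. MAF, encoding a large MAF factor, had intensities of 74.4, 74.1 and 98.7 in shNT and of 37.8, 43.6 and 38.4 in shPKCi, or 2.05-fold lower (log2 fold change -1.03, SE 0.13, adjusted p = 0.00095). The repressor genes BACH2 and BACH1, whose proteins pair with small MAF factors, fell by 0.71 and 0.67 on the log2 scale (adjusted p = 0.00141 and 0.00663). The shPKCi values of MAF lay below the median intensities of those arrays (44.9, 45.7 and 45.5), and those of BACH2 (53.6, 48.3 and 52.7) lay near them. The fold sizes of MAF and BACH2 are therefore uncertain. ATF2, a substrate of stress-activated kinases that pairs with JUN, fell by 0.49 (adjusted p = 0.0129), a call that was lost without shPKCi replicate 3 (0.0555). Across the 20 genes measured here, 0 rose, 4 fell and 16 did not pass, and the median was -0.08. These 4 are 20% of the list, beside 17.6% called over all probe sets. The groups did not overlap in 8 of them (40%, beside 35.3% over all probe sets), and without shNT replicate 2 the numbers that rose and fell were 0 and 5. ATF3, the leucine zipper gene most often induced by stress together with JUN, was at -0.10 on the log2 scale (adjusted p = 0.563), and it was picked out once the values were known.

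The other immediate early genes did not move as a block. BTG1, an antiproliferative gene, had intensities of 642.3, 707.1 and 743.7 in shNT and of 313.6, 275.6 and 301.6 in shPKCi, or 2.35-fold lower (log2 fold change -1.23, SE 0.10, adjusted p = 9.33e-05). CCN2, the connective tissue growth factor gene, fell by 0.98 and CITED2, a transcription cofactor gene, by 0.95 (adjusted p = 0.000231 and 0.000216). KLF4, a zinc finger factor of epithelial differentiation, fell by 0.78 (adjusted p = 0.00083). NFKBIZ, an inducible nuclear cofactor of NF-kappaB, was the 1 gene of the list that rose, by 0.39 (adjusted p = 0.0215), and its call was lost without shNT replicate 1 (0.0706), shNT replicate 3 (0.0662), shPKCi replicate 1 (0.0736) or shPKCi replicate 2 (0.105). Of 32 measured genes, 1 rose, 5 fell and 26 did not pass, with a median of -0.08 that became 0.0049 without shNT replicate 2. The share called was 18.8%, beside 17.6% of all probe sets. The groups lay apart in 18 of the 32, or 56.2%, beside 35.3% of all probe sets. The median signal percentile of the list was 73.0, and shares among probe sets of like signal were not computed. EGR3 and EGR4, relatives of EGR1, differed by 0.07 (adjusted p = 0.763) and by -0.01 (adjusted p = 0.979) on the log2 scale, at signal percentiles 34.2 and 46.7, and IER2 by -0.19 (adjusted p = 0.268). DUSP1, a phosphatase gene that is itself an early response gene, had a log2 difference of -0.34 (adjusted p = 0.057). All 4 were picked out once the values were known. Without shNT replicate 2, 2 genes of the list rose and 5 fell. Without any other single array, with the replicate block or with median centring 4 fell, and after cyclic loess 6 fell. The fifth gene that fell in the main fit was PPP1R15A, with a log2 difference of -0.45 (limma, adjusted p = 0.0451). It was also picked out once the values were known.

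Upstream of AP-1, 4 of 22 measured kinase genes fell and 0 rose, a share called (18.2%) close to that over all probe sets (17.6%). MAPK3, encoding the mitogen-activated kinase ERK1, had intensities of 255.0, 305.7 and 257.0 in shNT and of 135.6, 156.4 and 147.3 in shPKCi, or 1.86-fold lower (log2 fold change -0.89, SE 0.11, adjusted p = 0.000799). RPS6KA2, a ribosomal S6 kinase gene downstream of ERK, fell by 0.99 (adjusted p = 0.000428). MAPK10, a JUN N-terminal kinase gene, fell by 0.77 and MAP3K1, a kinase gene at the head of the JNK cascade, by 0.62 (adjusted p = 0.00358 and 0.00283). The shPKCi values of MAPK10 (42.4, 58.7 and 48.2) lay near the median intensities of those arrays, so its fold size is uncertain. MAPK8 and MAPK9, the widely expressed JUN N-terminal kinase genes, differed by 0.30 (adjusted p = 0.112) and 0.10 (adjusted p = 0.663) on the log2 scale, and were picked out once the values were known. The other 18 kinase genes did not pass, the median of the list was -0.13, and the groups did not overlap in 8 (36.4%, beside 35.3% of all probe sets). Without shNT replicate 2, 1 rose and 7 fell. Transcripts say nothing of kinase activity, which was not measured.

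Of the serum response factor and its partners, ELK3, a ternary complex factor, fell by 0.62 (SE 0.11, adjusted p = 0.00398). Its intensities were 710.0, 860.1 and 833.8 in shNT and 495.4, 526.7 and 535.9 in shPKCi. For SRF itself the log2 difference was 0.14 (adjusted p = 0.472), for ELK1 it was -0.01 (adjusted p = 0.966) and for ELK4 likewise -0.01 (adjusted p = 0.973), all 3 picked out once the values were known. Of 7 measured genes, 0 rose, 1 fell and 6 did not pass (14.3% called, beside 17.6% of all probe sets), and without shNT replicate 2 1 rose and 1 fell. In a list of corepressors, degradation factors and cofactors set beside AP-1 and EGR1, 11 genes were measured, of which 0 rose and 2 fell (18.2% called, again beside 17.6%). Whether the listed genes act on AP-1 in these cells was not tested. JAZF1, a nuclear zinc finger cofactor, fell by 0.59 (adjusted p = 0.00429), and TBL1X, a corepressor subunit, differed by -0.37 on the log2 scale (adjusted p = 0.04). The TBL1X call was lost in each of the 6 fits without 1 array (adjusted p from 0.0585 to 0.156). NAB2, the corepressor of EGR1 that EGR1 itself induces, had a log2 difference of -0.26 (adjusted p = 0.144), and was picked out once the values were known.

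**Figure D3:**
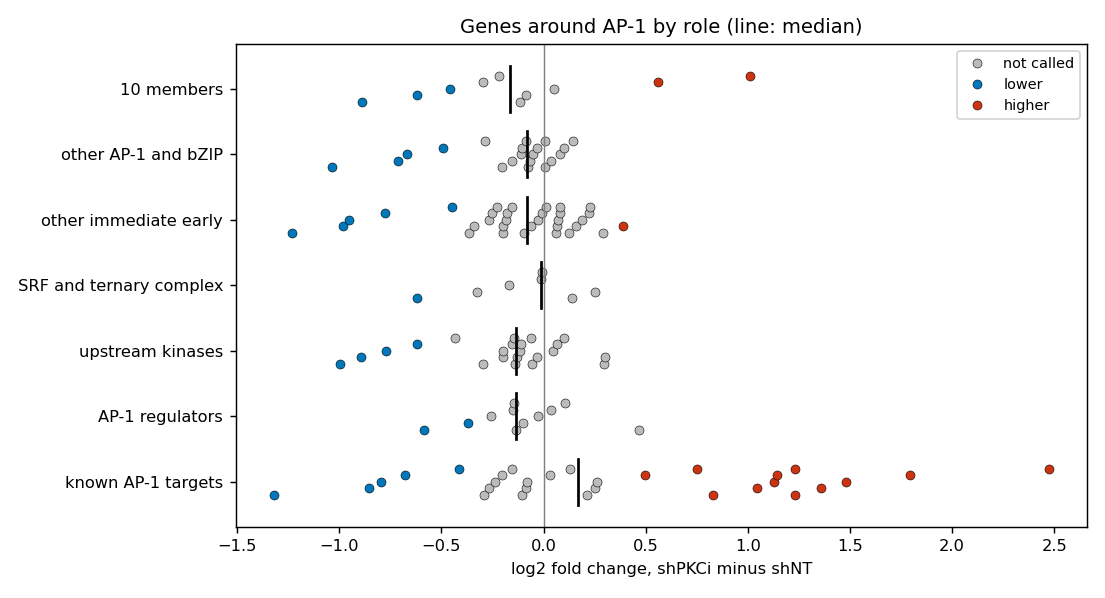
Log2 fold change, shPKCi minus shNT, of each measured gene in the member set and 6 lists of related genes, coloured by the limma call, with a line at each median. Points past the threshold lie mostly left of 0 in the first 6 rows, and on both sides in the row of known AP-1 targets, whose median lies at 0.17, or at 0.07 without shNT replicate 3. The medians of the other lists lie below 0 here, but that of the serum response factor list, at -0.01, lies at 0.02 after median centring of the arrays and at 0.0053 without shPKCi replicate 2. That of the immediate early list, at -0.08, lies at 0.0049 without shNT replicate 2.

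Genes known as AP-1 targets in epithelial cells changed in both directions. Of 30 measured, 12 rose, 5 fell and 13 did not pass, beside the 9.03% and 8.53% of all probe sets given above. The median was 0.17, and it was 0.07 without shNT replicate 3. The groups did not overlap in 23 (76.7%, beside 35.3% of all probe sets). These targets are bright, with a median signal percentile of 88.1, and shares among probe sets of like signal were not computed. MMP1, the interstitial collagenase gene, had intensities of 58.7, 44.0 and 62.1 in shNT and of 307.6, 283.6 and 314.6 in shPKCi, or 5.55-fold higher (log2 fold change 2.47, SE 0.14, adjusted p = 1.43e-05). Its shNT values lay near the median intensities of those arrays (45.7, 48.6 and 45.1), so its fold size is uncertain. The receptor ligand genes EREG and HBEGF, both ligands of the EGF receptor, rose 2.56-fold and 2.34-fold (adjusted p = 3.68e-05 and 4.5e-05). CXCL8, the neutrophil chemokine interleukin 8, had 710.6, 634.9 and 690.8 in shNT and 1583, 1594 and 1590 in shPKCi, or 2.34-fold higher (adjusted p = 5.65e-05). In each of these 4 genes the lowest shPKCi array lay above the highest shNT array.

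The 5 targets that fell were KRT16, SPRR1A, TIMP1, IVL and PLAUR. KRT16, a keratin of stressed epithelium, had intensities of 592.9, 498.8 and 445.6 in shNT and of 195.7, 191.0 and 227.6 in shPKCi, or 2.49-fold lower (log2 fold change -1.32, SE 0.13, adjusted p = 0.000228). The cornified envelope genes SPRR1A and IVL fell by 0.86 and 0.68 on the log2 scale (adjusted p = 0.000524 and 0.00196), and TIMP1, an inhibitor of matrix metalloproteinases, by 0.79 (adjusted p = 0.000613). PLAUR, the urokinase receptor gene, was the fifth, with a log2 difference of -0.41 (adjusted p = 0.0233). KRT16 and SPRR1A belong to families of similar sequence, and cross-hybridisation between relatives cannot be told from these values. SPRR2A of the same family rose by 1.80 (adjusted p = 0.000299). Further cornified envelope genes of the list did not pass, SPRR1B with a log2 difference of -0.27 (adjusted p = 0.104) and LORICRIN with -0.15 (adjusted p = 0.391). PLAUR, SPRR2A, SPRR1B and LORICRIN were picked out once the values were known. The list was written with the rise of MMP1 and SPRR2A and the fall of KRT16 already known. Its counts and shares are therefore not independent evidence of a direction or of more change than elsewhere. Without shNT replicate 2, 13 rose and 6 fell, and after cyclic loess between arrays 12 rose and 8 fell. Without shNT replicate 3, shPKCi replicate 1 or shPKCi replicate 2, 12 rose and 4 fell.

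The AP-1 site TGACTCA lay within the 250 bases before the start in 8 of the 22 targets with a promoter entry, against 4.2% of all starts. By call, these were 3 of 10 targets that rose, 3 of 4 that fell and 2 of 8 that did not pass. The list was drawn up from genes already known as AP-1 targets, so a share above 4.2% can follow from that choice alone. The targets were also read at the first listed start of each gene, while the 4.2% is a share of all annotated starts. No conclusion is drawn from the difference between the shares. Windows of CXCL8 (chr4:73740419-73740518, plus strand), which rose, and IVL (chr1:152908396-152908495, plus strand), which fell, are shown because both hold the same 7-letter site. They end 51 bases before the start, and the site, in capitals, is read on the strand opposite to TGACTCA in IVL.
CXCL8: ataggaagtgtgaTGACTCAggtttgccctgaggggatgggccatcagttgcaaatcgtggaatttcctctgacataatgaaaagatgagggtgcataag
IVL: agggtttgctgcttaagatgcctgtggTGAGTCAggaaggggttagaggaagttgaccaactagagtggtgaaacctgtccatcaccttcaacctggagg
The site stood before genes that moved in opposite directions, as in the counts by call above, and which AP-1 protein occupies it was not measured.

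**Figure D4:**
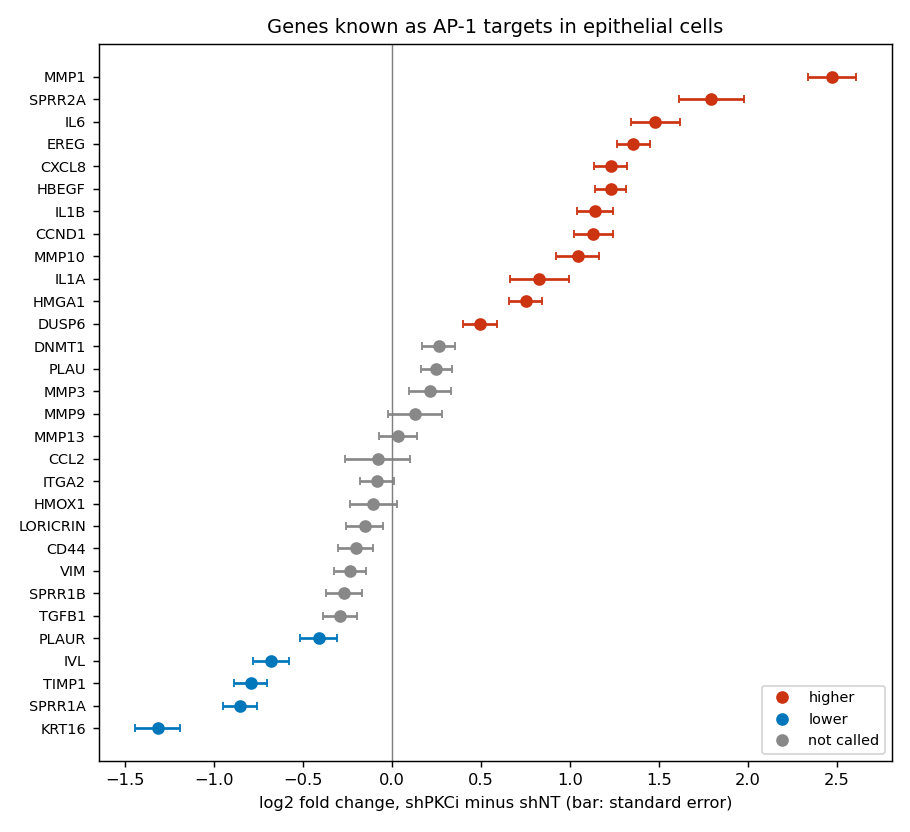
Log2 fold change, shPKCi minus shNT, of the 30 measured genes known as AP-1 targets, with bars for the standard error from limma and colours for the call. MMP1 is highest at 2.47 and KRT16 lowest at -1.32, and 13 genes in grey did not pass.

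Markers of cell type were read beside these results. Of 10 basal epithelial markers, 0 rose and 6 fell (60% called, beside 17.6% of all probe sets), with KRT5 and KRT14 at signal percentiles 99.6 and 97.1. Their median signal percentile was 89.4, and the share called among probe sets of like signal was not computed. The number of basal markers that fell was 3 without shPKCi replicate 1 or 2, 4 without shNT replicate 1, without shPKCi replicate 3 or with the replicate block, and 5 without shNT replicate 3. In the fit without shNT replicate 2, 1 rose and 6 fell. The summed intensity of the basal markers was 12753 to 13747 in the shNT arrays and 10516 to 10724 in the shPKCi arrays. Of 10 fibroblast and mesenchymal markers, 2 fell and 8 did not pass (1 fell without shNT replicate 3 or any 1 of the shPKCi arrays), with sums of 1031 to 1104 and of 675.5 to 705.4, and DCN and LUM were at percentiles 3.61 and 1.91. Of 7 luminal markers 2 fell, of 6 endothelial markers 1 fell and of 6 blood cell markers 1 rose, and their summed ranges were 3049 to 4070 and 3493 to 3686, 203.5 to 222.4 and 201.7 to 218.3, and 372.8 to 398.0 and 347.0 to 365.9 in shNT and shPKCi. Among the luminal markers, KRT8 and KRT18 rose and 2 fell without shNT replicate 2, and 1 fell without shNT replicate 1 or shPKCi replicate 1 or 2. The endothelial call was lost without shNT replicate 3 or any 1 of the shPKCi arrays, and the blood cell call without shNT replicate 1, any 1 of the shPKCi arrays or with the replicate block. PTPRC, which marks all white blood cells, was at percentile 1.25. The part of these shifts in the values of the members was not tested.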

How the data were processed

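Total RNA of 6 PrEC samples was hybridised to 1 array each, and samples were grouped by title into shNT and shPKCi (3 each). The table holds linear probe set intensities, made by the authors with RMA, which corrects background, quantile-normalizes and summarises probes, per the submitters' processing notes. The software, version and genome build are not given in the sources used here. The number of arrays limits the precision.

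Intensities were taken to log2. Of 32321 probe sets, 19158 carried exactly 1 gene symbol in the platform annotation. They were fitted together with limma 3.58.1 (lmFit, eBayes) in R 4.3.3, with no covariate and no filter, and Benjamini-Hochberg adjustment ran over all of them, with a threshold of 0.05. The fit was tested on simulated data. Lists of related genes were read at the probe set of highest mean signal. The members and lists were chosen with earlier results of these data known.

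Named genes were all members, up to 4 genes per direction with the smallest adjusted p in each list, and the 4 genes with the highest Pearson r to the member with the smallest adjusted p in each direction. Other genes were picked out once the values were known. As alternatives, the fit was repeated with a replicate block, with each array left out, and with median centring, cyclic loess, 2 filters on signal, 2 ways of choosing probe sets, all probe sets, other variance models, array weights, stricter thresholds and a pseudocount of 16. Counts of list and marker genes without each array, with the replicate block and under other scalings were added after seeing the data. Promoter sequences are RefSeq's (GRCh38.p14), a build used here for these sequences only. Where a gene has several starts, the first listed was read.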

Additional observations from a re-analysis of the deposited data

How the results depend on the processing

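Counts over all probe sets were 1730 higher and 1634 lower. With 1 array left out they ran from 958 to 1917 and from 1010 to 1945. They were 823 and 877 at an adjusted p under 0.01, and 89 and 179 in the treat test against a fold of 1.5. Of the members, 1 to 2 were higher and 3 to 4 lower with 1 array left out, the second rise being that of FOSL1, lost without shPKCi replicate 2 or 3. With all probe sets of the table, and at the stricter threshold, 1 was higher. In the limma treat test 1 was higher and 0 were lower, although 1 of the lower members (EGR1, adjusted p = 0.309) had an unadjusted p under 0.05. IER3 kept its direction and side of the threshold in all 19 alternatives. EGR1 and FOSL2 did so in 18 of 19 and FOS in 17 of 18, treat being the exception. JUN passed in 7 of 19, with adjusted p from 0.0204 to 0.0421: without shNT replicate 2, with cyclic loess, both filters, a trended robust variance, array weights and the pseudocount. FOSB changed sign without shPKCi replicate 1 (0.14, in a range from -0.24) and with array weights (0.039). The causes were not tested. JUNB, JUND and BATF3 did not pass in any setting. Deviations from the group means of arrays with the same replicate number had r = 0.11, -0.06 and -0.18. Between arrays with different numbers r ran from -0.16 to 0.21. With 3 arrays per group this check does not settle whether the samples were paired. With the replicate block, 1448 probe sets were higher and 1352 lower, and 2 members were higher and 3 lower. No detection calls were used here, which limits what can be said of FOSB, of BATF3 and of the size of the fall in FOS. The fold sizes of MAF, BACH2, MAPK10 and MMP1, which also had a group near the array medians, are limited likewise.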
